A study of Mus musculus with 6 samples.

Results

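The histone cluster window on mouse chromosome 13 spans 23659686 to 24083083 in the mm9 build, 423.398 kb in all. Members were taken by position: every locus of the count table whose span in the authors' merged assembly overlaps the window. There are 10 members among the 18420 loci of the table, 3 single-exon and 7 multi-exon. A locus is called single-exon where each of its transcript models has 1 exon. The stretch was selected on measured values, the normalized counts at day 6 against day 0, so that difference is given here as a description. Calls from a test fitted over all loci are printed for the members, but they are no evidence for the difference.

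The libraries hold polyadenylated RNA of mouse embryonic stem cells (ES cells, day 0) and of embryoid bodies (day 6), with 3 libraries per stage described in the series' design text as biological replicates. The day 0 group is undifferentiated ES cells of the line E14Tg2A.4, grown with LIF, a cytokine that holds ES cells undifferentiated, on embryonic fibroblast feeders or on gelatin. The day 6 group is the same line aggregated in hanging drops to start cardiac differentiation. Cells of both groups carry a bacterial artificial chromosome reporter, Nkx2.5-EmGFP, and are labelled C57BL/6J, although the growth protocol calls the line 129/OlaHsd. The reporter marks cells by the activity of a heart gene, and whether cells were sorted by it is not given. In bulk libraries such as these, fewer cells of a type and less RNA per cell cannot be told apart. Which libraries came from feeder cultures is not given. No gene names come with the locus identifiers, and 0 identifiers matched the name table. Libraries held 106306699 to 114092201 counted reads. Values below are normalized counts, which are the authors' read counts divided by a size factor per library.

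Replication-dependent histone genes supply the core histones H2A, H2B, H3 and H4 and the linker histone H1 that package newly made DNA. They lie in clusters, have short intronless coding units, often in head-to-head pairs, and are read mainly in S phase of the cell cycle. Their messenger RNAs usually end in a conserved stem-loop in place of a poly(A) tail, and a smaller share is polyadenylated. Poly(A) selection keeps the tailed share, so levels here are levels of polyadenylated RNA and not of all histone RNA.

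The stem-loop is shown because it is the end that replaces the tail which the libraries select for. In GENCODE M21, 33 of the 54 Hist1h genes with a coding transcript carry an exact histone stem-loop in an annotated transcript, against 0.2% of all 22500 genes with a coding transcript. The search used the sense strand only. Capitals mark the paired arms of 6 bases and lower case the loop of 4 bases, 5′ to 3′. These are reference sequences of the gene family and were not matched to single loci of the deposited table.
Most frequent form, 21 transcripts: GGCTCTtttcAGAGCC
Second form, 6 transcripts: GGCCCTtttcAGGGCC
Form with a different loop, 6 transcripts: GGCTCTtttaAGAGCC

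The label of the window was checked by lengths, which do not depend on the genome build. In GENCODE M21 the coding sequence with its stop codon is 312 nt in all 13 H4 genes, 411 nt in 12 of 12 H3 genes, 381 nt in 17 of 18 H2B genes and 393 nt in 15 of 18 H2A genes. Of the 21 annotated single-exon coding models in the window, 7 have exactly 1 of these lengths (33.3%), against 18 of 2289 such models outside it (0.786%). The 7 are 4 models of H4 length, 2 of H2B length and 1 of H3 length, and none has the H2A length. A further pair of models, of 384 and 390 nt, has lengths that 1 H2B and 2 H2A genes have in the reference. The remaining single-exon models run up to 2493 nt and could not be placed by length. The length compared is that of the whole model, so a histone model with untranslated bases would be missed. Below, a coding unit of a locus is a whole annotated single-exon coding model, which may include untranslated bases. Annotated single-exon models stood head to head, with starts on opposite strands pointing apart, in 3 pairs with a gap of at most 1000 nt, and these gaps were 179, 280 and 305 nt.

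Models of at least 3 exons were compared with GENCODE M21 by the series of their internal exon and intron lengths. XLOC_009137 held a series found only in Hfe, a gene for a membrane protein that regulates iron uptake. XLOC_008570 held, beside its single-exon models, a series found only in Trim38, a gene for a ubiquitin ligase of innate immune signalling. The 9 internal exons of XLOC_009143 matched only Scgn, the gene for the calcium-binding protein secretagogin. Series of Slc17a1, Slc17a2, Slc17a3 and Slc17a4, genes for organic anion and phosphate transporters, were found in 1 locus each. These are length matches and not names in the deposit, so loci keep their identifiers. The 4 loci that matched transporter genes have no count value here, so the distal end of the window as counted is XLOC_009143 alone.

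The same length matching, applied to the whole assembly after the data were seen, reached markers of the cell types and genes that act in making or processing histone RNA. Of the 7 ES cell markers, 6 were matched to a counted locus, and in limma (Benjamini-Hochberg adjusted p under 0.05) 4 were called lower at day 6, Zfp42, Esrrb, Klf4 and Dppa5a, and 0 higher. For the pluripotency factors Pou5f1 and Nanog the log2 changes were -0.37 and -0.99 and were not called. At day 0 their loci had 2854 to 4409 and 135 to 281 normalized counts, beside 74323 to 121896 for Zfp42. Whether the matched loci hold all reads of these genes was not tested. Over all tested loci 21.8% were called lower and 22.2% higher, which is the background for each list. Of the 6 heart markers, 5 were matched to 4 loci, since Myh6 and Myh7 share 1, and Nkx2-5 was not matched. Gata4, an early heart and endoderm transcription factor, was higher at day 6 with a log2 change of 4.12. Tnnt2 and Actc1, of the contractile apparatus, were called higher too. For Actc1 the stages overlap, with 117 normalized counts in day 0 replicate 2 and 63.7 in day 6 replicate 3. Its adjusted p in limma was 0.048, close to the threshold. The locus that holds Myh6 and Myh7, cardiac myosin heavy chains, was lower.

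All 6 fibroblast markers were matched and had counts in every library. Their summed level was 97393, 49070 and 214387 normalized counts at day 0 and 135937, 131058 and 88164 at day 6, so day 0 replicate 3 stood highest and day 0 replicate 2 lowest of all libraries. Thy1, Dcn and Col1a2 were called lower at day 6 (21.8% of all tested loci), with log2 changes of -3.50, -3.43 and -1.69. Of the 6, 0 were called higher (22.2% of all tested loci). Col3a1, Col1a1 and Lum changed by 1.19, 0.75 and 0.10 and were not called. Fibroblast markers thus differ between the day 0 libraries and do not move in 1 direction with the stage. Their part in the members' difference was not tested.

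Of 12 genes whose products act in making or processing histone RNA, 11 were matched, of which 1 was called lower and 0 higher. The shares over all tested loci were 21.8% lower and 22.2% higher. The one called was Zfp473, a zinc finger protein of histone pre-mRNA processing, with a log2 change of -1.24. Slbp, the protein that binds the stem-loop, had 17488, 17181 and 19973 normalized counts at day 0 and 17130, 19625 and 17506 at day 6, with a log2 change of -0.01, and the stages overlap. The median of the 11 was 0.11, beside 0.02 for all tested loci. Replacement histones are made outside S phase as well, from genes that mostly have introns and polyadenylated messages. Of 10 such genes 5 were matched to counted loci, and 1, H2afy2, was called higher with a log2 change of 2.13, and 0 were called lower.

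Of the 23 assembled loci in the window, 13 had no count value and were not analysed. They are 7 single-exon and 4 multi-exon coding loci, 1 annotated noncoding locus and 1 unannotated intergenic locus. In 5 of the 7 single-exon coding loci, all exonic bases also lie in exons of other loci. Over the whole assembly, 369 coding loci have all exonic bases shared in this way, and 0 of them had a count value. The counted loci are thus a part of the histone genes in the window, and the rest has no value here. All 18420 loci of the table had reads, so a locus without any read may have been left out of it. Whether a locus without a count value was not counted or had no reads is not given.

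A counted locus in this window is seldom a single histone gene. Of the 10 members, 5 join at least 2 annotated single-exon models (50%), against 0.538% of the 18410 loci of the table outside the window. Assembled models that overlap annotated exons without sharing a splice junction occur in 6 of the 10 members (60%) and in 3.98% of the other loci. The longest is a single exon of 20554 nt in XLOC_008566 that runs over 3 annotated coding units, of 615, 1742 and 312 nt. The sources used here do not give whether counting used strand. Values of members that share exonic bases with other loci are uncertain, since loci with all exonic bases shared had no count value and reads on the shared part of a member may be missing from its value too. The shared part was 54.4% for XLOC_009133, 24% for XLOC_008566, 10% for XLOC_008570 and 8.89% for XLOC_009138, and 0 for the other 6 members.

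**Figure D1:**
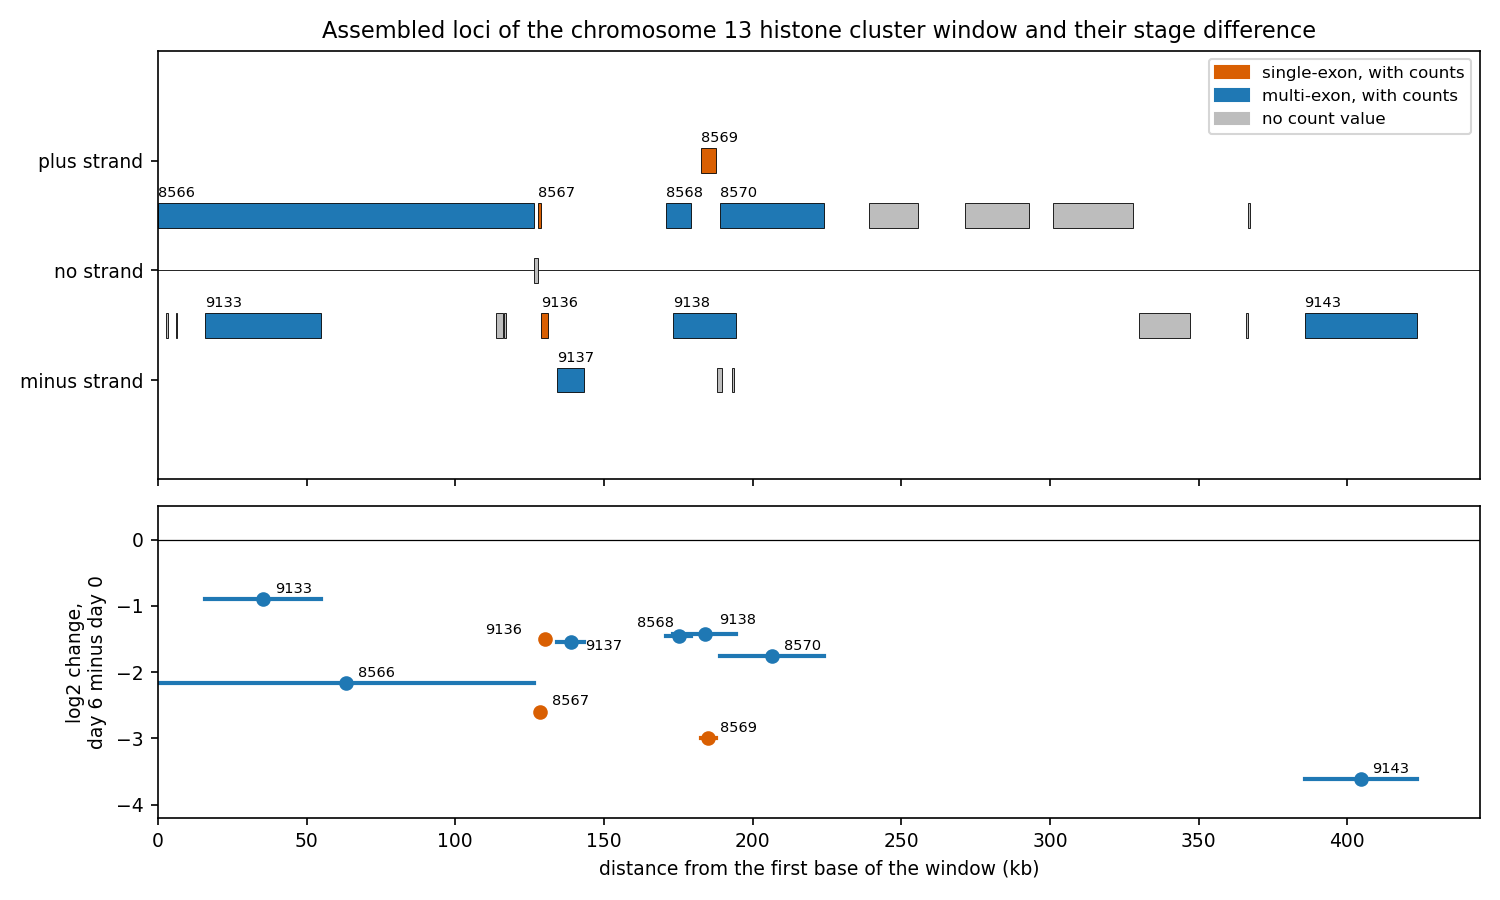
The upper panel maps the 23 assembled loci by strand against distance in kb from the first base of the window, with single-exon counted loci in orange, multi-exon counted loci in blue and loci without counts in grey, and labels give the last 4 digits of the locus number. The lower panel plots the log2 change from day 0 to day 6 of each counted locus over its span, and all 10 lie below 0, from -0.90 for XLOC_009133 to -3.62 for XLOC_009143.

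All 10 members were lower in embryoid bodies than in ES cells, and in each the 3 day 0 values lay above the 3 day 6 values. Over all loci of the table, 28.1% had every day 0 value above every day 6 value. Over the 17145 tested loci the share was 27.7%. Calls were made with limma at a threshold of 0.05 on the p adjusted by Benjamini-Hochberg, and 44.0% of tested loci were called, 21.8% as lower and 22.2% as higher. Of the members, 9 were tested and 9 were called lower, and 0 were called higher. Nothing is read from these counts, because the stage difference was in view when the window was proposed. XLOC_009136 and XLOC_009143 passed the filter on low values (at least 10 normalized counts in at least 3 libraries) through their day 0 values alone, and XLOC_008567 did not pass. The median log2 change, taken over all members whatever the filter, was -2.60 for the 3 single-exon members, beside -0.14 for the 586 single-exon loci outside the window. For the 7 multi-exon members the median was -1.54, beside -0.01 for the 17824 multi-exon loci outside. The order of these medians depends on the definition and the scale. Where any annotated single-exon model makes a locus single-exon, they were -1.63 for 8 single-exon and -2.58 for 2 multi-exon members, and with a pseudocount of 5 they were -1.38 and -1.48. Changes are on the scale log2(normalized count + 1), which understates those of low loci.

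**Figure D2:**
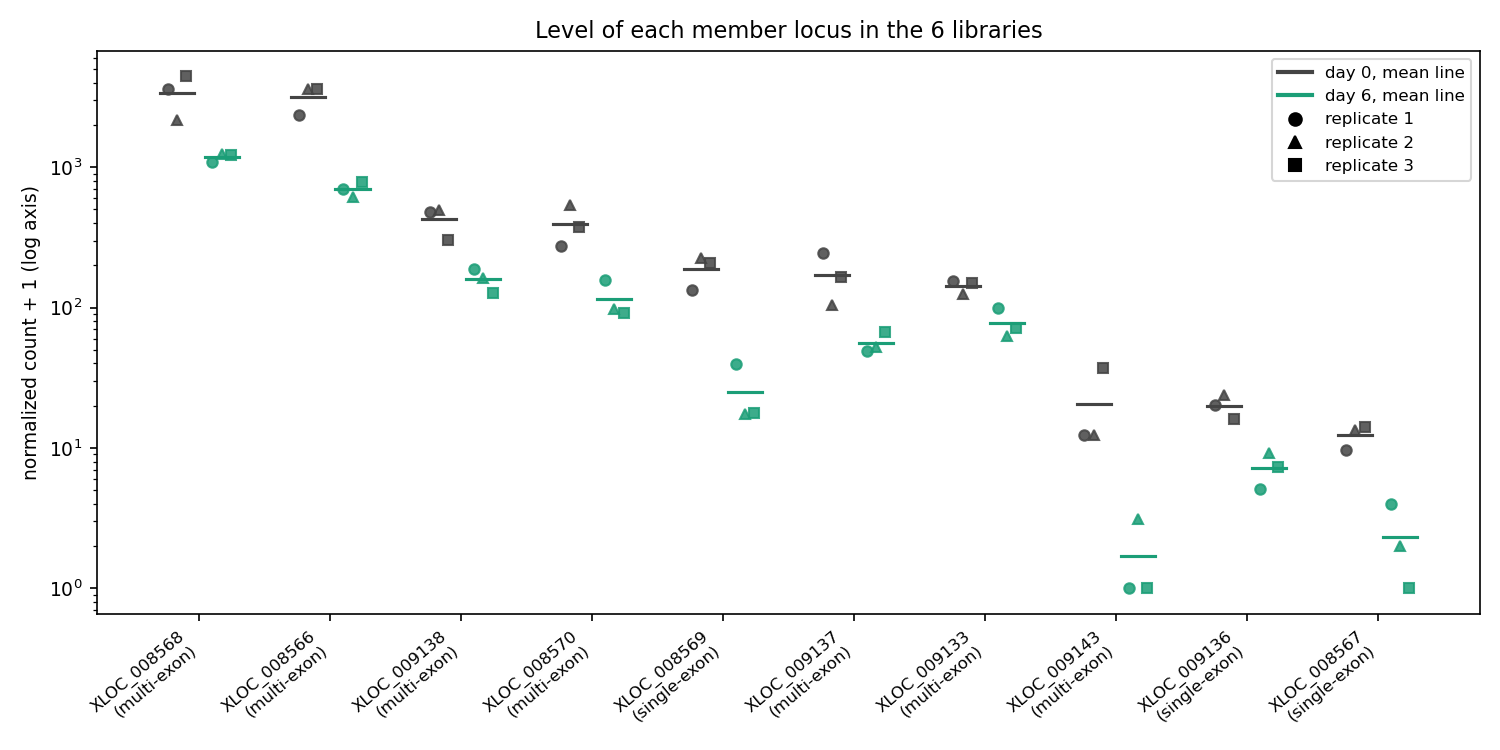
Each member's normalized count plus 1 is plotted on a log axis, with members ordered by their day 0 mean, day 0 libraries in grey, day 6 libraries in green, a marker shape per replicate and a line at each mean. The stages do not overlap for any of the 10 members, and XLOC_008568 and XLOC_008566 stand above all the others.

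Among the single-exon members, XLOC_008569 was the most abundant in counts. It lies at 23842366 to 23847381 on the plus strand and holds annotated coding units of 506 and 411 nt, the second of H3 length, under an assembled exon of 5016 nt. Its day 0 values were 131.7, 224.7 and 208.4 and its day 6 values 38.5, 16.4 and 16.7. Day 6 replicate 1 stood above the other day 6 libraries and below every day 0 library. The mean went from 188.3 ± 49.7 to 23.88 ± 12.7 (SD, n = 3 each), 7.89 times as high at day 0, and the log2 change was -3.0 (limma SE 0.43).

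XLOC_009136, at 23788688 to 23790859 on the minus strand, holds a coding unit of H4 length inside an assembled exon of 2172 nt. It had 19.2, 22.8 and 15 normalized counts at day 0 and 4.1, 8.2 and 6.3 at day 6, with a mean 3.07 times as high at day 0. The log2 change was -1.5 (limma SE 0.42), and the call was lost without day 6 replicate 1, without day 6 replicate 3 and with quantile normalization, where the change was -1.05. These are 59 reads over the day 0 libraries and 18 over the day 6 libraries, so the counting error alone puts the ratio between 1.79 and 5.54 (exact 95% interval, which covers counting error only).

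XLOC_008567 is a single annotated coding model of 912 nt on the plus strand at 23787680 to 23788591, next to XLOC_009136. Its values were 8.7, 12.4 and 13 at day 0 and 3.0, 1.0 and 0 at day 6. It was read 35 times at day 0 and 4 times at day 6 (ratio 8.2, log2 change -2.60), with an exact 95% interval from 2.93 to 31.8. All 3 single-exon members were lower at day 6, but only XLOC_008569 had at least 10 normalized counts in every library.

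The multi-exon members that also hold annotated single-exon models are 5, and they carry most of the signal. XLOC_008568, at 23830676 to 23839070 on the plus strand, holds coding units of 1561 and 468 nt that assembled 2-exon models join. It had 3585, 2183 and 4434 normalized counts at day 0 and 1093, 1250 and 1223 at day 6. The day 0 libraries differed about 2-fold among themselves, with replicate 2 lowest, while the day 6 libraries lay close together. The mean went from 3401 ± 1140 to 1189 ± 83.9 (SD, n = 3 each), a log2 change of -1.46 (limma SE 0.26).

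XLOC_008566 starts at the first base of the window and ends at 23786083 on the plus strand. Beside its intronless coding units, it holds a spliced coding model of 2 exons and 728 nt. Its values were 2347.5, 3602 and 3608 at day 0 and 699, 615 and 779 at day 6, with day 0 replicate 1 lowest. The mean went from 3186 ± 726 to 697.5 ± 81.8 (SD, n = 3 each), 4.57 times as high at day 0, with a log2 change of -2.17 (limma SE 0.23). Since all its models were counted together, the intronless units and the spliced model cannot be told apart in this value.

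XLOC_009138 lies on the minus strand at 23832974 to 23854255, across from XLOC_008568, and holds coding units of 480 and 534 nt. It had 479, 497 and 304 normalized counts at day 0 and 187, 161 and 125 at day 6. Here day 0 replicate 3 was the lowest, the library in which XLOC_008568 was highest. The log2 change was -1.42 (limma SE 0.30).

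XLOC_008570, at 23848866 to 23883596 on the plus strand, joins coding units of 312 nt (H4 length) and 747 nt with the multi-exon models that matched Trim38. Its values were 274, 535 and 371 at day 0 and 157, 96.4 and 89.8 at day 6, and the log2 change was -1.76 (limma SE 0.35). How much of it comes from the histone-length unit and how much from the other models is not given by a count per locus.

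XLOC_009133, on the minus strand at 23675539 to 23714427, has 2-exon coding models and a single-exon coding unit of 1931 nt. It had the smallest change of the members, with 153, 124 and 150 normalized counts at day 0 and 98.4, 61.5 and 71.0 at day 6. The ratio of the means was 1.85 and the log2 change -0.90 (limma SE 0.30). Its call was lost without each of 5 of the 6 libraries in turn (all but day 0 replicate 2), with quantile normalization and with a replicate block. It shares a larger part of its exonic bases with other loci than any other member.

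The other two multi-exon members hold no annotated single-exon model. XLOC_009137, which matched Hfe, lies at 23794058 to 23802894 on the minus strand between histone-length units. It had 242.5, 102.5 and 164.5 normalized counts at day 0, where replicate 1 was highest, and 47.7, 51.3 and 65.8 at day 6. The log2 change was -1.54 (limma SE 0.38), and the call was lost without day 6 replicate 1 or without day 6 replicate 2.

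XLOC_009143, which matched Scgn, lies at the far edge of the window at 24045326 to 24083083 on the minus strand. Its values were 11.3, 11.4 and 35.9 at day 0 and 0, 2.1 and 0 at day 6. It was read 60 times at day 0 and 2 times at day 6, a ratio of 28.1 with an exact 95% interval from 7.45 to 238. Day 0 replicate 3 stood about 3 times above the other day 0 libraries, and the SD of the log2 values at day 0, 0.91, was the highest among the members. The 2 members without annotated single-exon models were thus also lower at day 6, at a log2 change of -1.54 and -3.62.

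Summed over the 10 members, the level was 7252, 7316 and 9303 normalized counts at day 0 and 2327, 2262.5 and 2377 at day 6. The mean of 7957 ± 1170 became 2322 ± 57.3 (SD, n = 3 each), a ratio of 0.292 for day 6 over day 0. Scaled to the total of each library, the members took 62.1 to 87.8 CPM at day 0 and 19.3 to 21.2 CPM at day 6. XLOC_008566 and XLOC_008568 together made up 77.0 to 86.4% of the sum in each library. Without them the ratio was 0.318, a check added after the data were seen. The 3 single-exon members summed to 159.6, 260 and 236.3 at day 0 and 45.6, 25.6 and 23.0 at day 6.

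Per exonic kilobase, levels within the window differed widely. XLOC_008568 had 1560 normalized counts per kilobase at day 0 and 544 at day 6, the highest of the members. XLOC_008566 followed at 122 and 26.8, and XLOC_009138 had 71.0 and 26.2. The 3 single-exon members had 37.5 (XLOC_008569), 12.5 (XLOC_008567) and 8.74 (XLOC_009136) at day 0. Over all 6 libraries the median of the 10 members was 24.0 normalized counts per kilobase, against 87.8 for all loci of the table. For the single-exon loci outside the window it was 47.2, and for all tested loci, which passed the filter, 117. An assembled exon that runs far past the coding units lowers the value per kilobase, so these levels depend on the assembly.

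The members did not share an order of the day 0 libraries. Replicate 1 was the highest day 0 library for 2 members, replicate 2 for 4 and replicate 3 for 4, and the lowest was replicate 1 for 5, replicate 2 for 3 and replicate 3 for 2. The median SD of the log2 values was 0.40 at day 0 and 0.39 at day 6 for the members. It was 0.42 and 0.15 for all loci of the table and 0.40 and 0.14 for all tested loci. The members had a median level of 111 normalized counts, all loci of the table one of 720 and all tested loci one of 1010. The part of level in the larger day 6 spread of the members was not tested.

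The edge of the window does not coincide with the edge of the histone-length loci. Just inside its proximal edge lie XLOC_008566 and XLOC_009133, given above, and just outside lie XLOC_009129 and XLOC_008564. XLOC_009129, a single-exon locus with a unit of H4 length at 23642430 to 23643972, had 28.8, 41.4 and 23.9 normalized counts at day 0 and 24.3, 8.2 and 18.8 at day 6. The stages overlap there. XLOC_008564, at 23635921 to 23640524, had 62.8, 55.9 and 47.9 at day 0 and 28.4, 22.6 and 15.7 at day 6, with no overlap. A little further out lie XLOC_009128, a single-exon locus, and then XLOC_008563, a multi-exon locus, each with 1 unit of histone length. XLOC_009128 had 36.6, 64.2 and 83.8 at day 0 and 37.5, 32.8 and 31.3 at day 6. Its stages overlap, and its log2 change was -0.77. XLOC_008563 had 489, 465 and 704 at day 0 and 182.5, 197 and 158 at day 6, with no overlap and a log2 change of -1.60. At the distal edge, inside lie XLOC_009143 and XLOC_008570, and outside lie XLOC_009144 and XLOC_008575. XLOC_009144, with up to 38 exons, had 4100, 5228 and 4802 at day 0 and 7117, 7589 and 7335 at day 6, so its day 6 values all lay above its day 0 values. XLOC_008575 had 25.3, 10.4 and 41.9 at day 0 and 39.5, 29.7 and 64.7 at day 6, and there the stages overlap.

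The windows of the same length on either side held 12 loci before and 2 after the cluster. Of the 12, 7 had a log2 change below 0, with a median of -0.42 and a range from -1.60 to 1.42. The 2 after it changed by 0.65 and 0.89. Of the 729 other loci of chromosome 13 in the table, 51.7% were below 0, with a median of -0.03.

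A second run of histone-length models lies on the same chromosome, from 21807632 to 22135479, and holds 11 such models in 11 counted loci. It was found by length alone, after the data were seen. In these 11 loci the log2 changes ran from -2.21 to 0.52 with a median of -0.81, and 10 of the 11 were below 0. Other counted loci in the same stretch, without a histone-length model, ran from -4.10 (XLOC_008536) to 0.03 (XLOC_008535). Of the 11, 9 were tested, and of these 4 were called lower (21.8% of all tested loci) and 0 higher. The stages were apart, with day 0 above day 6, in 4 of these 11 loci (36.4%), beside 28.1% of all loci of the table. They were apart in 10 of the 10 members, whose window was selected on this contrast. The members' median of -1.65 was further from 0, but these medians are of unlike sets. Members are every counted locus of their window, with 4 histone-length models among them, while the 11 were kept for such a model. Whether the runs differ was not tested. They also differ in structure: the 11 are mostly single annotated units, while most members hold more than 1 model.

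**Figure D3:**
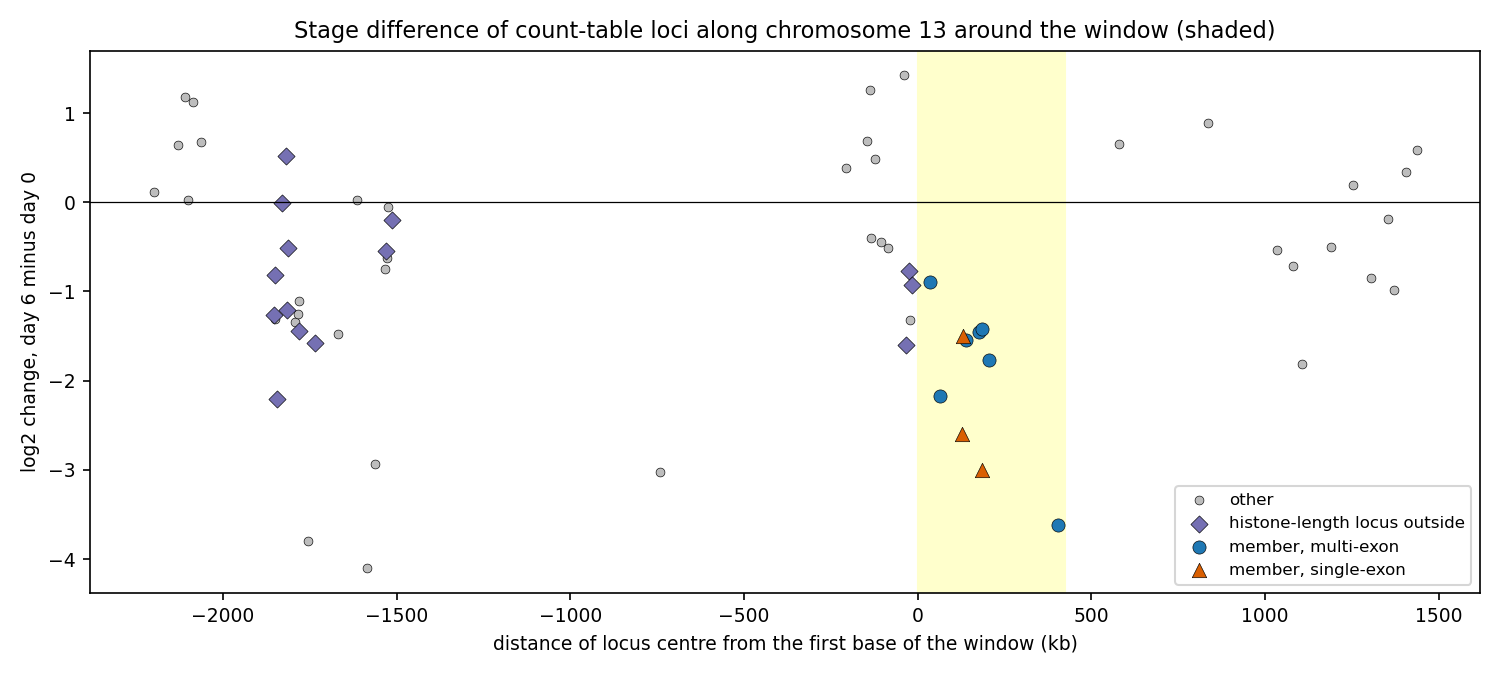
The log2 change from day 0 to day 6 of each counted locus is plotted against the distance in kb of its centre from the first base of the window, which is shaded. All 10 members (blue circles for multi-exon, orange triangles for single-exon) lie below 0, the loci with histone-length units outside (purple diamonds) spread from -2.21 to 0.52, and the 2 loci of the next window of the same length lie above 0. Other counted loci are grey circles, and those within the second run spread from -4.10 (XLOC_008536) to 0.03 (XLOC_008535).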

How the data were processed

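Per the submitters' processing notes, the authors used TopHat2 2.0.8, Cufflinks 2.1.1, HTSeq 0.5.4p3 and DESeq on mm9, with no role or order given. The deposited signal per locus is a read count which the authors divided by a library's size factor, as the values show: all were whole multiples of a step (100% within 0.01 reads). Recovered reads numbered 106306699 to 114092201 per library. Columns left unused numbered 0. Since reads carry no molecular identifiers, copies made in PCR count separately and intervals cover counting error only.

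Loci, exons and shared exonic bases were read from the deposited merged assembly. Day 6 was compared with day 0 in limma 3.58.1 (R 4.3.3; eBayes with trend and robust options), with a pseudocount of 1 before the log2 step and no replicate block. The 17145 loci tested reached 10 normalized counts in 3 or more libraries. Two-sided p-values were adjusted after Benjamini-Hochberg, with a threshold of 0.05. Alternatives used edgeR 4.0.16 and DESeq2 1.42.0 on recovered reads. Steps were tested on simulated data. The members and lists were chosen with earlier results of these data known. All 10 members are named with their values, with the loci nearest each edge. Since 0 identifiers matched a name, genes of the marker, replacement histone and histone RNA lists were matched to loci by internal exon and intron lengths, for models of at least 3 exons with 1 matching gene. Lengths were compared with GENCODE M21, which uses another build, so none of its coordinates were used. The length comparisons and the second run were chosen after the data were seen. Intervals are exact (Clopper-Pearson).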

Additional observations from a re-analysis of the deposited data

How the results depend on the processing

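Every log2 change of the 10 members stayed below 0 in the 117 values from the alternatives run. For the values with a library left out or another pseudocount this sign was fixed in advance, since the stages do not overlap in any member. The sign in those values is therefore no support, and only the size can vary. With a replicate block the change itself was fixed as well, since the design is balanced, so those values are no support either. The widest range was that of XLOC_009143, from -4.85 with DESeq2 to -1.99 with a pseudocount of 5. The median of the single-exon members was -2.60. It was -1.38 with a pseudocount of 5, -2.15 with quantile normalization, -3.10 to -2.09 with a library left out, and -1.63 where any annotated single-exon model made a locus single-exon. Under that definition, which leaves 2 multi-exon loci, their median was -2.58 beside -1.54, the same as without loci that hold an annotated single-exon model, an alternative added after the data were seen. With a library left out it ran from -1.75 to -1.39. The summed ratio of 0.292 was 0.338 for members with at most 10% shared exonic bases and 0.279 to 0.319 with a library left out. The 9 calls were 6 to 7 with a library left out, 7 with quantile normalization (without XLOC_009133 and XLOC_009136) and 10 without a filter. Leaving out a day 0 library also left only 7 members tested. Over the whole table, calls numbered 7543, and ran from 4798 without day 6 replicate 2 and 4955 without day 6 replicate 1 to 7930 without day 0 replicate 1 and 8353 without day 0 replicate 2. Replicate numbers were not taken as pairs: deviations from the stage means correlated at 0.176, 0.134 and 0.074 for equal numbers, not all over 0.1. The correlations for unequal numbers ran from -0.138 to -0.007, and each day 0 library correlated best with its own number. Deviations sum to 0 within a stage at each locus, so the values below 0 are no separate support. The better match of equal numbers is at most a hint from the data and not from the design. With a replicate block the calls were 8, without XLOC_009133. Low depth limits XLOC_008567, XLOC_009136 and XLOC_009143.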
